A study of Mus musculus with 14 samples.

Results

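The genes that receive, carry, make and break down retinoic acid were followed in male germ cells of the postnatal mouse testis. They are Rara, Rarb and Rarg (the retinoic acid receptors), Stra6 (uptake of retinol), Crabp1 and Crabp2 (binding proteins), Rdh10 and Aldh1a2 (synthesis), and Cyp26a1 and Cyp26b1 (breakdown). The members were taken by name for their roles, by a rule that uses no measured value, though earlier results of these data were known when the set was drawn up. All 10 were found among the 24340 gene symbols of the RPKM tables. RPKM is a read number scaled to transcript length and library size, so levels of different genes can be set side by side. The 14 RNA-seq libraries, from C57BL/6 mice, fall into 7 groups with 2 libraries each. Those of mice 3 days after birth (P3) were P3 WT (wild type), P3 Ctrl (Vasa-Cre; Jmjd1a-/+; Jmjd1b-/+), P3 Jmjd1aKO (Vasa-Cre; Jmjd1a-/-; Jmjd1b-/+), P3 Jmjd1bKO (Vasa-Cre; Jmjd1a-/+; Jmjd1b-/-) and P3 DKO (Vasa-Cre; Jmjd1a-/-; Jmjd1b-/-). At day 7 (P7) they were P7 Ctrl and P7 DKO, with the genotypes of the P3 groups of the same name. Every group but P3 WT thus carries the Cre, which is driven in germ cells, and has lost at least 1 copy of both genes. Jmjd1a and Jmjd1b, whose current symbols are Kdm3a and Kdm3b, encode demethylases of histone H3 lysine 9. Nothing in the labels tells whether the 2 libraries of a group are from different animals. The p-values therefore measure only the spread between these libraries, which may be technical.

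Retinol enters cells through the membrane protein STRA6 or by diffusion, is oxidised to retinaldehyde by dehydrogenases such as RDH10, and then to retinoic acid by ALDH1A enzymes. Retinoic acid is held in the cytoplasm by CRABP proteins and acts in the nucleus on RAR proteins, which bind DNA as dimers with RXR partners, while CYP26 enzymes oxidise it for disposal. In the postnatal testis it drives spermatogonia into differentiation and later into meiosis, and Sertoli cells, the somatic cells of the tubule, are an early source.

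Germ cell RNA was abundant in each library, with Ddx4, which encodes the helicase VASA, at 169 to 307 RPKM. Transcripts of both demethylases were reduced where the labels say so. Kdm3a was at 26.3 to 28.4 RPKM in P3 Ctrl and at 9.83 to 14.3 in P3 Jmjd1aKO and P3 DKO. Kdm3b was at 10.2 and 13.5 RPKM in P3 Ctrl and at 4.26 to 7.51 in P3 Jmjd1bKO and P3 DKO. At P7, Kdm3a was at 27.1 and 27.2 RPKM in controls and 7.59 and 8.97 in DKO, and Kdm3b at 16.1 and 17.3 against 6.49 and 6.73. Depth per library, estimated from the steps between RPKM values, ran from 14.9 M fragments in P3 WT to 56.2 M in P3 DKO. Replicates correlated across genes at r = 0.938 (P3 Jmjd1bKO) to 0.981 (P7 Ctrl). P3 Jmjd1aKO replicate 2 and P3 Jmjd1bKO replicate 2, called the Sertoli-rich pair below, stood apart by transcripts of somatic cells. The sum of 12 Sertoli markers was 684 and 849 RPKM there, against 103 to 130 in P3 WT and 36.9 to 153 in the others. The sum of 10 peritubular and stromal markers was 63.1 to 63.6 RPKM in this pair and 6.14 to 29.0 elsewhere, and that of 7 Leydig markers 13.2 to 19.0 against at most 2.93. Results that rest on the pair are given with and without it. In bulk RNA a change in the number of cells of a type and a change in RNA per cell cannot be told apart.

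Rarb and Cyp26a1 are textbook targets of the receptors themselves, through a retinoic acid response element close to their start sites. That element is a direct repeat of a 6-base unit with a spacer of 5 bases, searched here on both strands. The unit could be spelled AGGTCA or, with other bases allowed inside it, AGTTCA as well as GGGTCA, and finally GGTTCA. Promoter windows from RefSeq (GRCm38.p6, 250 bases before to 50 after a start site) were found for 8 of the 10 genes, all but Crabp2 and Rdh10. Of these 8, Rarb and Cyp26a1 held the repeat, which 32 of all 32851 windows hold (0.0974%) and 5 of 10990 tested genes with a window. Both genes were known to carry such an element and the allowed spellings take in their units, so finding it there is no test of enrichment. The sequences are shown because these 2 genes share the element and their levels are set side by side below. Capitals mark the repeat.
Rarb, chr14:16575506-16575535, minus strand: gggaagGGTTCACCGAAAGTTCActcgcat
Cyp26a1, chr19:37697770-37697799, plus strand: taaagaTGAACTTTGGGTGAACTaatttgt
The Rarb repeat spans bases -53 to -37 from its RefSeq start and reads with the gene as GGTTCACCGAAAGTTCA. The Rarb gene as annotated by GENCODE begins further upstream, at base 16819156. The Cyp26a1 repeat spans bases -32 to -16, just before the annotated gene, and reads on the opposite strand as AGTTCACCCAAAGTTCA. Both therefore end in the unit AGTTCA, and their first units are GGTTCA and AGTTCA. None of 27 other retinoid genes, 6 receptor coregulators and 10 retinoic acid responsive genes with a window held the repeat. The match is a description of the letters, and binding was not measured.

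Crabp1 was the most abundant of the 10 genes in every library, at 68.5 to 242 RPKM, and Rara and Aldh1a2 came next by their medians (15.9 and 17.6 RPKM). Rarg, Rdh10, Crabp2 and Cyp26a1 lay lower (medians 5.83, 4.64, 3.86 and 3.35). Rarb, Stra6 and Cyp26b1 were near 1 RPKM or below in most libraries (medians 0.738, 0.679 and 0.821). All 10 passed the filter of at least 1 RPKM in at least 2 libraries. Changes are differences of log2(RPKM + 1) with their SE from limma, which understate the change of low genes, and a call is an adjusted p under 0.05 over the 14772 tested genes.

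**Figure D1:**
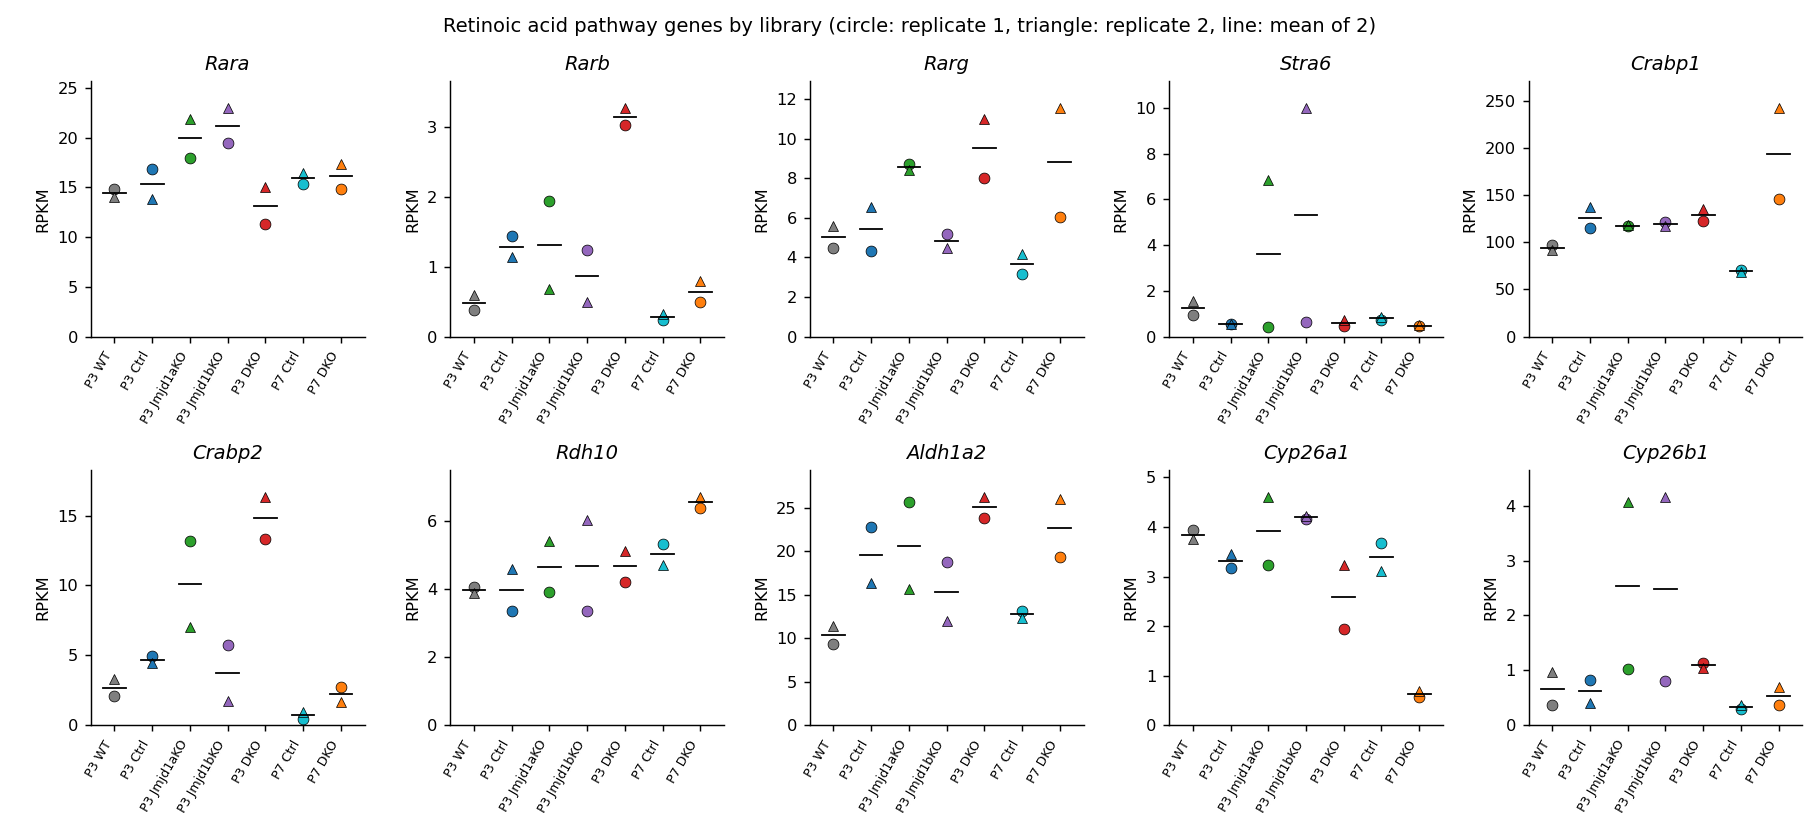
Level in RPKM (linear axes from 0) of each of the 10 genes in the 14 libraries. Each point is 1 library (circle replicate 1, triangle replicate 2) and each line the mean of 2, and the P7 DKO libraries stand lowest for Cyp26a1 (0.582 and 0.686) and highest for Crabp1 (146 and 242).

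The number of the 10 genes called was set against the share of all tested genes called in the same comparison. Loss of both demethylases at P7 (P7 DKO against P7 Ctrl) called 3 of the 10, where 33.5% of all genes were called: Crabp1 and Rarg higher and Cyp26a1 lower. The share of members is close to the background, so the count alone says nothing particular about these genes. At P3 the same contrast called none of the 10 against a background of 4.47% in limma, with Crabp2, Rarb and Rarg at an unadjusted p under 0.05. Of all 14772 tested genes, 3623 were at such an unadjusted p there. Age in controls (P7 Ctrl against P3 Ctrl) called 2, Crabp1 and Crabp2, both lower (background 23.3%). Age in double knockouts called 4 (background 58.3%): Crabp1 higher, and Crabp2, Rarb and Cyp26a1 lower. Whether the effect of the joint loss differed between the ages was tested directly, and it did for Crabp1 and Cyp26a1 (background 22.9%). P3 DKO against P3 Jmjd1bKO called 3 (background 16.5%), with Crabp2 and Rarb higher and Rara lower. P3 DKO against P3 Jmjd1aKO (0.0338%), P3 Jmjd1aKO against P3 Ctrl (0.0338%), P3 Jmjd1bKO against P3 Ctrl (0.0203%) and P3 Ctrl against P3 WT (0.704%) called none of the 10 in limma. Of these 4 comparisons in the same order, 3, 0, 1 and 2 members were at an unadjusted p under 0.05. Over all 14772 tested genes the numbers were 1674, 1484, 268 and 3923, so the member counts alone show nothing particular. Several comparisons share libraries, so their values are given side by side and not counted as independent.

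**Figure D2:**
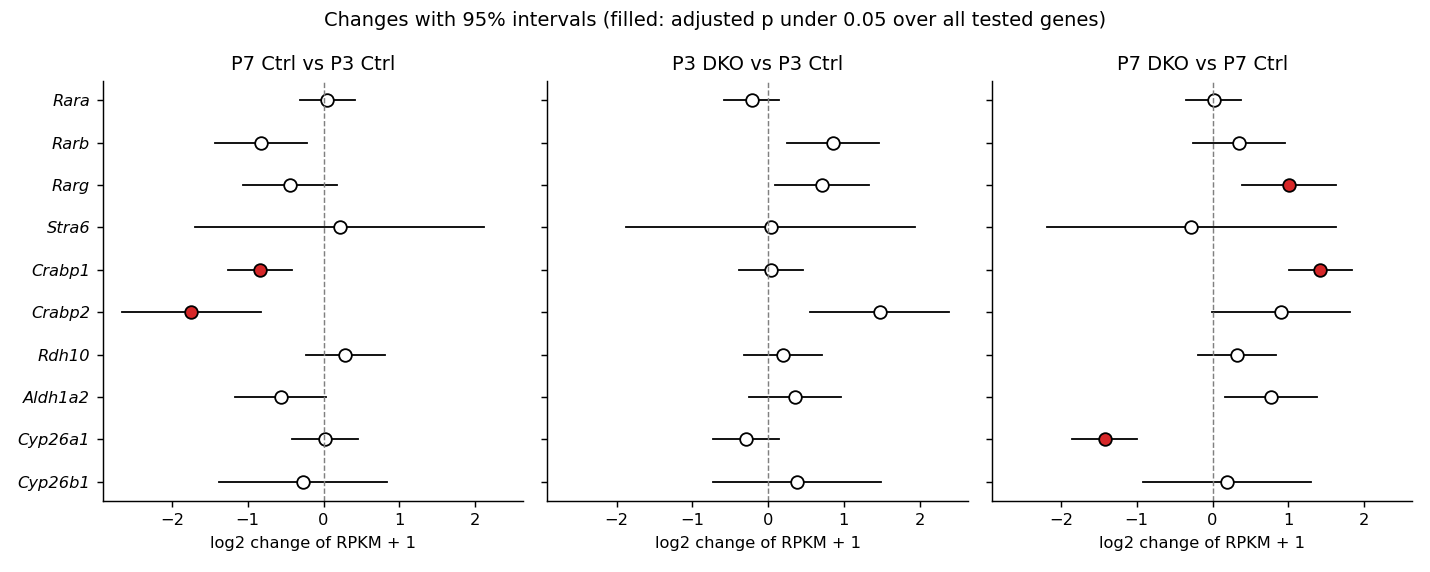
Change of each of the 10 genes as a difference of log2(RPKM + 1) with its 95% interval, for age in controls and for loss of both demethylases at P3 and at P7 (2 libraries a group). Filled points have an adjusted p under 0.05, namely Crabp1 and Crabp2 with age, and Rarg, Crabp1 and Cyp26a1 at P7, and the interval of Stra6 is the widest of the 10 in each panel.

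The receptors differed in how they varied. Rara, the most abundant of them, stayed within 11.3 to 22.9 RPKM over all libraries and did not pass against control at either age. Rarg was higher in P7 DKO than in P7 Ctrl. Rarb was the rarest receptor and reached its highest level in P3 DKO.

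Rara (chromosome 11, 98927818 to 98974942, plus strand) was at 15.3 and 16.5 RPKM in P7 Ctrl and at 14.8 and 17.4 in P7 DKO. The groups overlapped, and the change was 0.01 ± 0.16 with a 95% interval of -0.35 to 0.38. The order of the group means ran from P3 DKO (13.2 ± 2.59, SD, n = 2) through P3 WT, P3 Ctrl, P7 Ctrl, P7 DKO and P3 Jmjd1aKO to P3 Jmjd1bKO (21.2 ± 2.48). Each neighbouring pair in that order differed by less than the summed SDs. Between the ends of the order, P3 DKO libraries held 11.3 and 15.0 RPKM and P3 Jmjd1bKO libraries 19.4 and 22.9, a change of -0.65 ± 0.16 (adjusted p = 0.0278, limma). That call ended without P3 DKO replicate 1 (adjusted p = 0.145) or replicate 2 (0.0978) and without P3 Jmjd1bKO replicate 2 (0.157), and without the whole Sertoli-rich pair (0.118).

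Rarb (chromosome 14, 16430839 to 16819156, minus strand) was at 3.03 and 3.27 RPKM in P3 DKO. It was at 1.44 and 1.14 in P3 Ctrl, 1.94 and 0.684 in P3 Jmjd1aKO, 1.24 and 0.494 in P3 Jmjd1bKO, and 0.376 and 0.594 in P3 WT. At P7 it was at 0.243 and 0.331 in controls and 0.491 and 0.792 in DKO. Both P3 DKO libraries were thus above each of the other 12. The change from P3 Ctrl, 0.86 ± 0.27, did not pass (adjusted p = 0.0934, limma), and that from P3 Jmjd1bKO did (1.18 ± 0.27, adjusted p = 0.0221). When the Sertoli-rich pair was left out, a choice made after seeing the data, the change from P3 Ctrl had an adjusted p of 0.0155 in limma. These libraries are in neither group, and act through the spread that all groups share. The change from P3 Jmjd1bKO kept its call without that pair (0.89, adjusted p = 0.0387) and lost it without P3 DKO replicate 1 (0.0745), P3 DKO replicate 2 (0.139) or P3 Jmjd1bKO replicate 2 alone (0.134). Rarb fell with age in DKO cells (-1.34 ± 0.27, adjusted p = 0.00217), a call kept under each of 12 alternatives (adjusted p from 0.00015 to 0.0311). With age in controls the change was -0.83 ± 0.27 (adjusted p = 0.0516).

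Rarg (chromosome 15, 102234938 to 102257517, minus strand) was at 3.19 and 4.20 RPKM in P7 Ctrl and 6.07 and 11.5 in P7 DKO. The groups did not overlap, though the DKO libraries lay far apart. The rise was 1.01 ± 0.28 (adjusted p = 0.0193, limma) and was not called without P7 Ctrl replicate 1 (0.86, adjusted p = 0.127), without P7 DKO replicate 2 (0.60, 0.14), or with only the 4 libraries of the 2 groups (0.0971). At P3 the levels were 4.31 and 6.55 RPKM in Ctrl, 8.73 and 8.41 in Jmjd1aKO, 5.16 and 4.47 in Jmjd1bKO, 8.03 and 11 in DKO, and 4.50 and 5.60 in WT. The 4 libraries without Jmjd1a were above the other 6 of that age, and neither change against P3 Ctrl passed (0.60 ± 0.28 in Jmjd1aKO, adjusted p = 0.506, and 0.72 ± 0.28 in DKO, adjusted p = 0.149).

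As shares of the summed receptor RPKM, Rara made up 50.6 and 51.3% in P3 DKO, Rarg 35.9 and 37.6%, and Rarb 13.6 and 11.2%. In P3 Ctrl the Rara share was 74.6 and 64.3% and the Rarb share 6.36 and 5.30%. At P7 the Rara share was 81.7 and 78.4% in controls and 69.3 and 58.5% in DKO. The Rara share was thus lower in DKO than in Ctrl at both ages with no overlap, beside summed levels of 18.8 to 29.7 RPKM in these libraries.

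**Figure D3:**
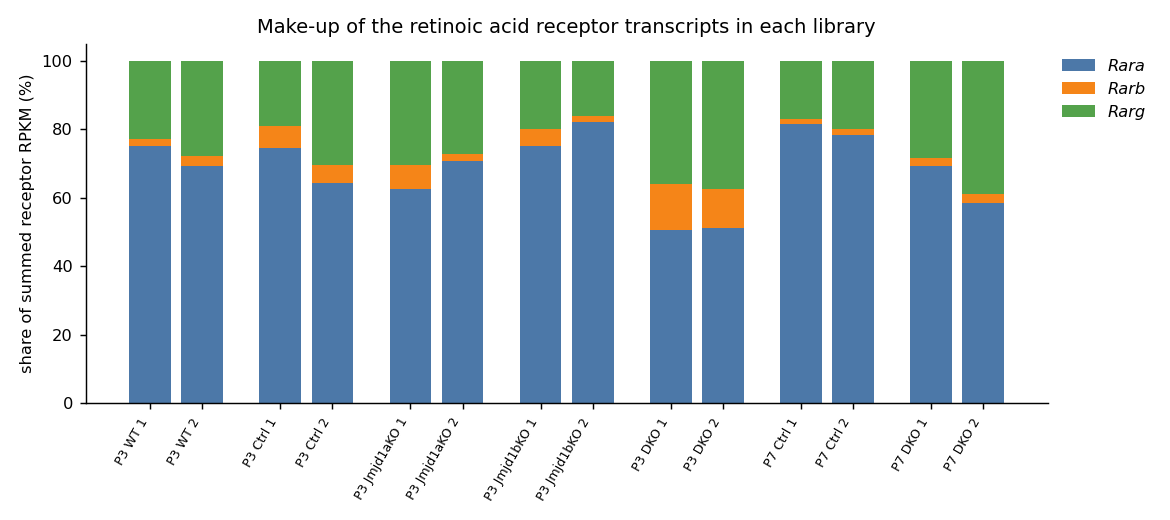
Share (%) of Rara, Rarb and Rarg in their summed RPKM in each of the 14 libraries, 1 bar per library, with the axis from 0. The P3 DKO libraries have the lowest Rara shares (50.6 and 51.3%) and the highest Rarb shares (13.6 and 11.2%).

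Among the binding proteins, Crabp1 fell with age in controls and stood highest in P7 DKO, while Crabp2 fell with age in both genotypes. Crabp1 holds retinoic acid in the cytoplasm and Crabp2 delivers it to the receptors in the nucleus. Stra6 stayed low but for the Sertoli-rich pair.

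Crabp1 (chromosome 9, 54764748 to 54773110, plus strand) was at 70.4 and 68.5 RPKM in P7 Ctrl and 146 and 242 in P7 DKO. At P3 it was at 96.5 and 91.9 in WT, 114.5 and 137 in Ctrl, 117 and 118 in Jmjd1aKO, 121 and 117 in Jmjd1bKO, and 123 and 135 in DKO. The P7 Ctrl libraries were the lowest of the 14 and the P7 DKO libraries the highest, and the 4 Cre groups of P3 lay within 114.5 to 137. The rise in P7 DKO was 1.42 ± 0.19 (adjusted p = 0.000507, limma), and it was called under each of 12 alternatives (adjusted p from 4.53e-05 to 0.0309). At P3 the change was 0.04 ± 0.19, with a 95% interval of -0.38 to 0.46. The difference between these changes was 1.38 ± 0.27 (adjusted p = 0.0064) and passed under each of 16 alternatives (0.000607 to 0.0291).

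With age Crabp1 fell in controls by 0.84 ± 0.19 on the log2 scale (adjusted p = 0.014, limma), a call lost without any single one of the 4 libraries (adjusted p = 0.0524 without P3 Ctrl replicate 1, 0.0626 without replicate 2, 0.0808 without P7 Ctrl replicate 1 and 0.0866 without replicate 2). In DKO it was higher at P7 than at P3 by 0.54 ± 0.19 (adjusted p = 0.0311). That call ended without P3 DKO replicate 1 (0.137) or 2 (0.0656), without P7 DKO replicate 2 (0.18, adjusted p = 0.226), without a filter on low values (0.0602), with only the libraries compared (0.135), and under quantile normalization (0.08, adjusted p = 0.70). The size of the difference in DKO cells thus rests on the P7 DKO library at 242 RPKM and on the scaling.

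Crabp2 (chromosome 3, 87948666 to 87953376, plus strand) was at 13.3 and 16.3 RPKM in P3 DKO and 13.2 and 7.06 in P3 Jmjd1aKO. It was at 4.94 and 4.43 in P3 Ctrl, 5.78 and 1.77 in P3 Jmjd1bKO, and 2.11 and 3.30 in P3 WT. At P7 it was at 0.482 and 0.934 in Ctrl, of which the lower rests on about 8 fragments, and 2.75 and 1.67 in DKO. The libraries without Jmjd1a were the 4 highest of P3, a split seen in the values and not tested as such. The change in P3 Jmjd1aKO from P3 Ctrl was 0.91 ± 0.41 (adjusted p = 0.499, limma) and did not pass. DKO was above Ctrl at both ages. The change in DKO from Ctrl was 1.47 ± 0.41 at P3 (adjusted p = 0.0675, limma) and 0.90 ± 0.41 at P7 (adjusted p = 0.119), so neither passed. Without the Sertoli-rich pair the P3 change had an adjusted p of 0.0129. Against P3 Jmjd1bKO the rise in P3 DKO was 1.86 ± 0.41 (adjusted p = 0.0199). It was 1.22 and not called without P3 Jmjd1bKO replicate 2 (0.107) or the whole Sertoli-rich pair (0.0518), and not called without P3 DKO replicate 1 (0.0617) or 2 (0.137).

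The fall of Crabp2 with age was -1.75 ± 0.41 in controls (adjusted p = 0.0165, limma) and -2.32 ± 0.41 in DKO (adjusted p = 0.00106). The call in DKO was kept under each of 12 alternatives (0.000109 to 0.0113). The call in controls ended without P3 Ctrl replicate 1 (0.0966), P7 Ctrl replicate 1 (0.113) or P7 Ctrl replicate 2 (0.0686). The 2 falls were not shown to differ (difference -0.57 ± 0.58, adjusted p = 0.51).

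Crabp2 and Rarb were highest in P3 DKO, where the 10 stromal markers summed to 27.8 and 29.0 RPKM against 13.8 to 17.9 in P3 Ctrl, with Lum at 0.36 and 0.57 against 0.05 and 0.13. Lum itself was below the filter, and none of the 9 stromal markers tested was called there. The 12 Sertoli markers summed to 58.0 to 61.7 RPKM in P3 DKO against 36.9 to 47.7 in P3 Ctrl, and the leukocyte markers to 5.92 to 7.44 against 12.4 to 16.0. Cd68 and Cd52 made up most of the leukocyte sum. Ptprc went the other way, at 0.507 and 0.317 RPKM in P3 DKO against 0.104 and 0.066 in P3 Ctrl. Lyz2 and Adgre1 were also higher in P3 DKO, Csf1r was not, and none of the 3 leukocyte markers tested was called. The endothelial markers summed to 27.4 to 28.1 RPKM in P3 DKO, within the 23.6 to 36.7 of P3 Ctrl. Of 5 endothelial markers tested 1 was called, Tek, higher at 3.49 and 4.04 RPKM against 1.53 and 1.14 (1.03 ± 0.25, adjusted p = 0.0478, limma). Kdr was also higher (0.34), and Pecam1, Flt1 and Cdh5 were lower (-0.45, -0.22 and -0.13), none of them called. In the pair of libraries where the stromal sum reached 63.1 to 63.6 RPKM, Rarb was at 0.684 and 0.494 RPKM and Crabp2 at 7.06 and 1.77. The stromal markers did not move together. Des, with the largest stromal change in P3 DKO (0.93 ± 0.34, not called), was at 4.76 and 1.96 RPKM in that pair. It was at 8.18 and 8.44 in P3 DKO and 5.26 and 2.83 in P3 Ctrl. Col1a1 was at 20.3 and 20.6 RPKM in the pair and 8.94 and 8.63 in P3 DKO. The part of somatic RNA in the P3 DKO values was not tested further.

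Stra6 (chromosome 9, 58063788 to 58153996, plus strand) was at 0.407 to 1.56 RPKM in 12 libraries. In P3 Jmjd1aKO replicate 2 it was at 6.85 and in P3 Jmjd1bKO replicate 2 at 9.98, against 0.407 and 0.628 in the other replicate of each genotype. No change of Stra6 passed. With an SE of 0.85 the intervals are wide, from -2.19 to 1.63 for P7 DKO against P7 Ctrl, and groups of 2 show little about this gene.

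Of the synthesis genes, neither was called in the 10 comparisons. Rdh10 acts at the first step from retinol and Aldh1a2 at the second step.

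Rdh10 (chromosome 1, 16105774 to 16133734, plus strand) ranged from 3.34 to 6.69 RPKM. Its highest levels were those of P7 DKO, at 6.37 and 6.69, against 5.32 and 4.71 in P7 Ctrl (0.33 ± 0.23, 95% interval -0.19 to 0.84, adjusted p = 0.317, limma). Both P7 DKO libraries were above each of the other 12. Against P3 DKO, at 4.21 and 5.12 RPKM, the change was 0.42 ± 0.23 (adjusted p = 0.149), and it was called under quantile normalization and without the Sertoli-rich pair.

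Aldh1a2 (chromosome 9, 71215789 to 71296243, plus strand) was at 13.2 and 12.3 RPKM in P7 Ctrl and 19.4 and 26.0 in P7 DKO. At P3 it was at 9.33 and 11.5 in WT, 22.8 and 16.4 in Ctrl, 25.7 and 15.7 in Jmjd1aKO, 18.8 and 12 in Jmjd1bKO, and 23.9 and 26.2 in DKO. DKO was above Ctrl at both ages without overlap, and WT was the lowest group. The change at P7 was 0.77 ± 0.27 (adjusted p = 0.0513, limma, 95% interval 0.17 to 1.38). It passed with a pseudocount of 0.1 (0.0477), with median-centring (0.0435), with only the 4 libraries compared (0.0405) and without the Sertoli-rich pair (0.013). The change at P3 was 0.36 ± 0.27 (adjusted p = 0.456), and that from P3 WT to P3 Ctrl 0.84 ± 0.27 (adjusted p = 0.102, and 0.0284 without the pair).

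The breakdown genes behaved unlike each other. Cyp26a1, an enzyme that clears retinoic acid and is induced by it, was lower in P7 DKO than in every other library. Cyp26b1, the enzyme that shields germ cells of the fetal testis from retinoic acid, was low outside the Sertoli-rich pair.

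Cyp26a1 (chromosome 19, 37697798 to 37701536, plus strand) was at 3.67 and 3.12 RPKM in P7 Ctrl and 0.582 and 0.686 in P7 DKO. At P3 it was at 3.93 and 3.76 in WT, 3.18 and 3.46 in Ctrl, 3.24 and 4.6 in Jmjd1aKO, 4.17 and 4.23 in Jmjd1bKO, and 1.95 and 3.22 in DKO. The means of the 5 groups other than DKO were 3.32 to 4.20 RPKM, and both P7 DKO libraries lay below each of the other 12. The fall at P7 was -1.43 ± 0.19 (adjusted p = 0.000603, limma), and it was called under each of 12 alternatives (adjusted p from 0.000203 to 0.0104). At P3 the change was -0.29 ± 0.19 (adjusted p = 0.40), with the groups overlapping. The fall from P3 to P7 in DKO was -1.11 ± 0.19 (adjusted p = 0.000992), lost only under quantile normalization among 12 alternatives (-0.39, adjusted p = 0.151). In controls the change with age was 0.02 ± 0.19, with a 95% interval of -0.41 to 0.46.

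The DKO change of Cyp26a1 was lower at P7 than at P3 by -1.14 ± 0.27 (adjusted p = 0.0168, limma). That difference was not called without P3 DKO replicate 2 (-0.88, adjusted p = 0.0623), without P7 Ctrl replicate 1 (-1.05, 0.0722) or under quantile normalization (-0.58, 0.213). The lower P7 DKO level rests on about 23 fragments, so its counting error is larger than that of the controls. Beside this fall, 6 endothelial markers summed to 2.02 and 3.07 RPKM in P7 DKO against 12.5 to 13.2 in P7 Ctrl, with Emcn at 0 in P7 DKO replicate 2. The 10 stromal markers summed to 6.14 to 7.10 against 19.2 in both P7 Ctrl libraries, with Tcf21 at 0 in all 4 libraries. Most of the P7 Ctrl stromal sum was Col1a1 (14.1 and 14.3) and Pdgfra (3.97 and 4.01), the 2 stromal markers called lower. The other 7 stromal markers tested were not called, with changes from -0.03 (Col3a1) to 0.22 (Acta2). Of these lists 3 of 5 and 2 of 9 tested markers were called lower in P7 DKO, where 33.5% of all genes were called. Of 7 germ cell markers 2 were higher and 4 lower, and of 12 Sertoli markers 1 was lower. None of the 5 Leydig and 3 leukocyte markers tested was called. The part of these cell types in the Cyp26a1 result was not tested.

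Rarb and Cyp26a1, the members with the response element shown above, both fell from P3 to P7 in DKO (-1.34 ± 0.27 and -1.11 ± 0.19, adjusted p = 0.00217 and 0.000992, limma). No other comparison called both in the main fit. In P3 DKO against P3 Jmjd1bKO their changes were opposite, 1.18 ± 0.27 for Rarb and -0.56 ± 0.19 for Cyp26a1 (adjusted p = 0.0221 and 0.0742, limma). Under quantile normalization both were called in that comparison. Rarb was at its highest in P3 DKO, where Cyp26a1 was at 1.95 and 3.22 RPKM. In P7 DKO Rarb was at 0.491 and 0.792 RPKM, above the P7 Ctrl libraries (0.35 ± 0.27, adjusted p = 0.368, limma), while Cyp26a1 was below them. Over the 14 libraries, which share the groups and the processing, Pearson's r of their log2(RPKM + 1) was -0.04.

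The ratio of Aldh1a2 to Cyp26a1, which sets a synthesis gene against a breakdown gene and was singled out after the values were seen, was 33.3 and 38.0 in the P7 DKO libraries. It was 3.58 and 3.96 in P7 Ctrl and 2.37 to 12.2 at P3, with 12.2 and 8.14 in P3 DKO. RNA ratios do not measure enzyme activity.

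Cyp26b1 (chromosome 6, 84571414 to 84593908, minus strand) was at 4.06 RPKM in P3 Jmjd1aKO replicate 2 and 4.15 in P3 Jmjd1bKO replicate 2, and at 0.289 to 1.14 in the other 12 libraries. At P7 it was at 0.289 and 0.378 in controls and 0.364 and 0.694 in DKO, which overlap (0.19 ± 0.50, adjusted p = 0.824, limma). The 2 enzymes were about equally represented in the pair rich in Sertoli transcripts, where the ratio of Cyp26a1 to Cyp26b1 was 1.13 and 1.02. In P7 Ctrl that ratio was 12.7 and 8.24, and in P7 DKO 1.60 and 0.988.

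Loss of Jmjd1a alone or of Jmjd1b alone, with 1 copy of the other gene left, was compared with P3 Ctrl to ask what each does by itself. Here the library rich in somatic transcripts is 1 of the 2 in each knockout group. Stra6 and Cyp26b1, together with Aldh1a1, the retinaldehyde dehydrogenase of Sertoli cells, were high in exactly those libraries. Aldh1a1 was at 95.1 and 115.9 RPKM in the pair, 17.3 and 17.4 in P3 WT and 2.43 to 4.68 in the other 6 P3 libraries. At P7 it was at 13.5 to 17.6. Amh, the hormone of immature Sertoli cells, was at 108 and 149.6 RPKM in the pair and at 2.30 to 22.6 in the rest. The changes of Stra6 were 1.09 ± 0.85 in Jmjd1aKO and 1.44 ± 0.85 in Jmjd1bKO, and those of Cyp26b1 0.99 ± 0.50 and 0.93 ± 0.50, none of which passed (adjusted p = 0.688, 0.965, 0.537 and 0.965, limma). In the other replicate of each knockout Stra6 was at 0.407 and 0.628 RPKM and Cyp26b1 at 1.02 and 0.812, against 0.543 and 0.572 and against 0.829 and 0.409 in P3 Ctrl.

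**Figure D4:**
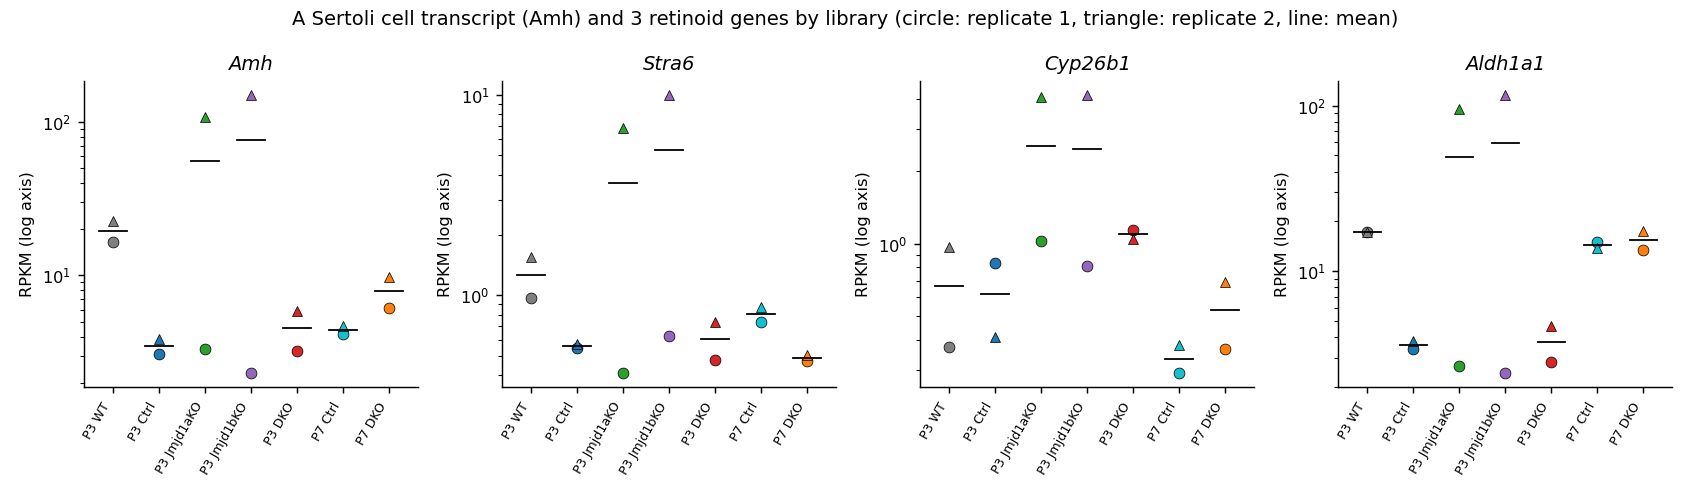
Levels (RPKM, log axes) of Amh, a Sertoli cell transcript, and of Stra6, Cyp26b1 and Aldh1a1 in the 14 libraries (circle replicate 1, triangle replicate 2, line the mean of 2). In each panel the triangles of P3 Jmjd1aKO and P3 Jmjd1bKO are the 2 highest points, with Stra6 at 6.85 and 9.98.

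The wider pathway was described with lists of other genes. Of 34 further genes of retinoid handling and signalling 23 were tested, and in P7 DKO 3 were higher, 4 lower and 16 not called (median change 0.02, as over all genes, against a background of 33.5%). Dhrs3, which turns retinaldehyde back to retinol, was at 6.54 and 6.02 RPKM in P7 Ctrl and 1.11 and 0.763 in P7 DKO (-1.92 ± 0.18, adjusted p = 0.000101, limma). Aldh1a3, another retinaldehyde dehydrogenase, fell from 3.05 ± 0.0013 to 0.10 ± 0.11 RPKM (-1.88 ± 0.29). The RXR partners of the receptors moved in opposite directions. Rxra fell from 37.1 ± 0.75 to 17.5 ± 3.47 RPKM (-1.06 ± 0.15) and Rxrb rose from 22.7 ± 2.15 to 41.2 ± 7.77 (0.82 ± 0.13, adjusted p = 0.000829 and 0.00112). Ppard, a nuclear receptor for fatty acids that can also be reached by retinoic acid, fell (-0.995 ± 0.16), and Fabp5, its carrier protein, rose (0.68 ± 0.13). Rdh14, a retinol dehydrogenase named after its value was seen, was also higher (0.57 ± 0.12).

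Of 10 coregulators of the receptors, 1 rose and 3 fell in P7 DKO, and 6 were not called (median -0.06, background 33.5%). The coactivator gene Ncoa1 rose from 0.813 and 1.06 RPKM to 3.83 and 4.33 (1.39 ± 0.18, adjusted p = 0.000442, limma). The acetyltransferase genes Ep300 (-0.55 ± 0.11) and Crebbp (-0.50 ± 0.14) were among those that fell. Crebbp was not called without P7 DKO replicate 2 (-0.24, adjusted p = 0.115, limma), nor without P7 Ctrl replicate 1 (0.128) or replicate 2 (0.0753).

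Of 17 retinoic acid responsive genes tested, 2 rose, 1 fell and 14 were not called in P7 DKO (median 0.06). That share is below the background of 33.5%. Stra8, which is needed for entry into meiosis, was at 61.0 and 56.0 RPKM in controls and 172 and 276 in DKO (1.88 ± 0.28, adjusted p = 0.00091, limma). Kit, the receptor of differentiating spermatogonia, was at 8.10 and 7.26 RPKM against 12.3 and 14.1 (0.71 ± 0.20, adjusted p = 0.0205). Its call ended without P7 Ctrl replicate 1 (0.0665) or 2 (0.116) or without P7 DKO replicate 2 (0.111). Sall4, a transcription factor of spermatogonia, fell from 96.8 and 86.6 to 39.2 and 37.8 RPKM (-1.23 ± 0.082, adjusted p = 1.64e-05). Rec8, a meiotic cohesin gene that responds to retinoic acid, was at 22.9 and 20.7 RPKM against 20.0 and 26.7 and did not pass (0.08 ± 0.18, adjusted p = 0.782).

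**Figure D5:**
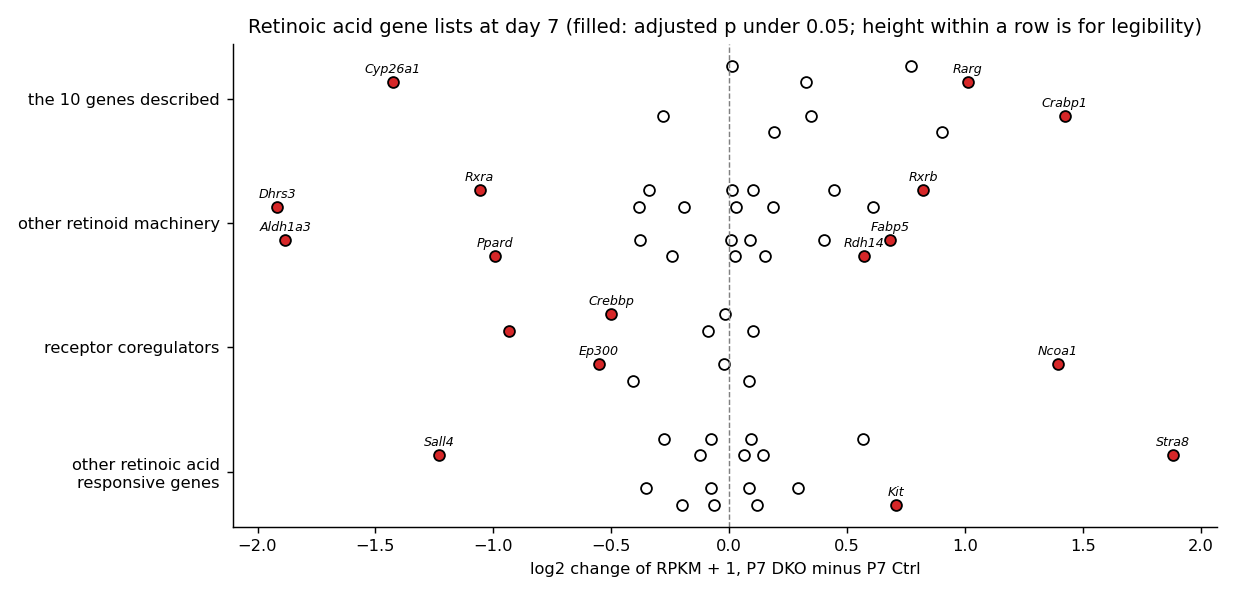
Difference of log2(RPKM + 1) between P7 DKO and P7 Ctrl (2 libraries a group) for the 10 genes described and for 3 lists of other retinoic acid genes, with 1 point per gene. Filled points have an adjusted p under 0.05, and those described in the text carry their names. They lie on both sides of 0 in every list, from Dhrs3 at -1.92 to Stra8 at 1.88.

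At P3 the joint loss called 1 higher and 1 lower of the 23 retinoid genes, none of 10 coregulators and 1 of 17 responsive genes (background 4.47%). Dhrs3 was at 6.99 and 8.87 RPKM in P3 Ctrl, 3.24 and 3.02 in P3 DKO and 2.41 and 3.55 in P3 Jmjd1aKO. It was thus lower in DKO at both ages (-1.10 ± 0.18 at P3, adjusted p = 0.0214, limma). Fabp5 rose by 0.85 ± 0.13 (adjusted p = 0.0169). Without P3 Ctrl replicate 2 the adjusted p of Dhrs3 and Fabp5 was 0.168 and 0.135, and without P3 DKO replicate 2 it was 0.158 and 0.136. Dhrs3 was also not called without P3 DKO replicate 1 (0.0666), and neither gene was called with only the libraries compared (0.0931 and 0.0945).

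With age in controls, 5 of the 23 retinoid genes and 8 of the 17 responsive genes fell, and 0 and 1 rose (medians -0.29 and -0.60, background 23.3%). Fabp5 fell from 20.7 and 15.8 RPKM to 3.69 and 3.42 (-2.07 ± 0.13, adjusted p = 9.19e-05, limma) and Kit from 28.0 and 26.7 to 8.10 and 7.26 (-1.71 ± 0.20, adjusted p = 0.00165). The retinol-binding protein gene Rbp7 (-1.84 ± 0.38), Bhlhe40, also called Stra13 (-2.78 ± 0.53), and the homeobox gene Cdx1 (-1.50 ± 0.30) fell too. Their adjusted p rose to 0.0838, 0.0717 and 0.0813 without P3 Ctrl replicate 1, to 0.0653, 0.058 and 0.0662 without P7 Ctrl replicate 1, and to 0.0712, 0.0614 and 0.0695 without P7 Ctrl replicate 2. Stra8, named here after its value was seen, was the responsive gene that rose (0.87 ± 0.28, adjusted p = 0.048). It was at 27.7 and 35.9 RPKM in P3 Ctrl and 61.0 and 56.0 in P7 Ctrl. In P3 WT it was already at 53.2 and 61.2, so the rise was seen against P3 Ctrl only. Of the 10 coregulators 1 rose and 2 fell, the latter being Nrip1 (-1.03 ± 0.21) and Ncoa1 (-0.86 ± 0.18). Without P7 Ctrl replicate 2 these were at an adjusted p of 0.0866 and 0.0581, and without P3 Ctrl replicate 1 at 0.0817 and 0.0861. Ncoa1 was at 0.0902 without P7 Ctrl replicate 1.

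For each member called in some comparison, the 3 tested genes with the most similar pattern were found by Pearson's r of log2(RPKM + 1) over the 14 libraries, among 13351 genes. The values describe libraries that share groups and processing. Cyp26a1 was most like Limk1 (r = 0.977), Pacsin2 (0.973) and Osbpl9 (0.968), and Crabp1 like Slc35b2 (0.96), Zdhhc7 (0.949) and Lamtor5 (0.936). Rarb was most like Fndc3c1 (0.986), Papss2 (0.979) and Abca12 (0.98), and Crabp2 like Kremen2 (0.976), Shkbp1 (0.969) and Chrm4 (0.968). Rarg had Gfra3 (0.93), Irx2 (0.92) and Rhod (0.902), and Rara had Ankrd13a (0.898), Abhd11 (0.895) and Susd3 (0.872). Among the members themselves Rarb and Crabp2 were the closest pair (r = 0.906), followed by Stra6 and Cyp26b1 (0.882), and Crabp1 and Cyp26a1 had the most negative value (-0.62).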

How the data were processed

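Poly(A) RNA of 14 testis libraries was sequenced from a stranded mRNA kit, per the labels' protocols. The authors deposited RPKM values per gene symbol. TopHat2 2.1.1, Cufflinks 2.1.1 and the mm10 build are named in the submitters' processing notes, and their settings and the annotation are not given in the sources used here. No cell sort is stated. Read counts were not used: depth was estimated from RPKM steps in 3505 single-transcript genes, where 82.3 to 86% of values lay within 0.2 of a whole fragment, against 40% by chance. Precision is limited by 2 libraries a group.

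Differences were tested two-sided with limma 3.58.1 (R 4.3.3; trended empirical Bayes) on log2(RPKM + 1), with 1 coefficient for each of the 7 groups and 7 residual degrees of freedom. Genes had to reach 1 RPKM in at least 2 libraries (9568 removed, 14772 tested). Each of the 10 comparisons had its own Benjamini-Hochberg adjustment over all tested genes. An exact permutation test of 2 libraries against 2 cannot go below 0.3333 and was not used. The script was tested on simulated data. Descriptions used Python 3.11.15.

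Named were all 10 members, and from each of 3 lists of other retinoic acid genes the called genes with the largest change: up to 6 in P7 DKO against P7 Ctrl and up to 3 each in P3 DKO against P3 Ctrl and with age in controls. The markers Amh and Ddx4, marker sums and the 3 genes most like each called member were also given. Some genes that this rule takes in are counted but not reported here by name. The members and lists were chosen with earlier results of these data known. Gene positions are from GENCODE M21 (GRCm38). Alternatives were another pseudocount, no filter, quantile normalization, median-centring, a replicate block, no trend, only the libraries compared, and each library left out. Leaving out the Sertoli-rich pair was added after seeing the data.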

Additional observations from a re-analysis of the deposited data

Results flagged for a closer look

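The effect of losing both demethylases differed between the ages for 2 of the 10 members and 10 of the 19 other genes that the naming rule takes in, by the difference of the changes (P7 minus P3, log2 scale) tested in limma. Of all genes tested 22.9% were called, and the 19 were taken for being called with a large change, most of them in P7 DKO, so their count is partly built in. Among the members it was 1.38 for Crabp1 (adjusted p = 0.0064) and -1.14 for Cyp26a1 (0.0168). Among the other genes of retinoid handling and signalling it was -0.87 for Rxra, 0.85 for Rxrb, -0.99 for Ppard, -1.72 for Aldh1a3 and -0.81 for Dhrs3. For the coregulator genes Ncoa1 and Ep300 it was 0.98 and -0.65. Of the responsive genes, Stra8 had 2.44, Kit 1.49 and Sall4 -1.40. At P3 Kit was at 16.1 and 14.9 RPKM in DKO and 28.0 and 26.7 in Ctrl, and at P7 at 12.3 and 14.1 against 8.10 and 7.26. Groups of 2 were not tested for a single deviating library.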

How the results depend on the processing

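No call of a member turned its direction under any alternative. Of the 14 calls of members, all 14 were kept without a trend, with median-centring, with a pseudocount of 0.1 and with the replicate block, 13 without a filter, 12 without the Sertoli-rich pair, 11 under quantile normalization and 9 with only the libraries compared. Without that pair the number of members called was 2 for P3 Ctrl against P3 WT, 2 for P3 DKO against P3 Ctrl, 1 for P3 DKO against P3 Jmjd1bKO, 5 for P7 DKO against P7 Ctrl, 4 for age in controls and 5 for age in DKO, where Rdh10 was gained. Over all 14772 tested genes, leaving out the pair called 2199 for P3 Ctrl against P3 WT and 1931 for P3 DKO against P3 Ctrl (104 and 661 with it). For P7 DKO against P7 Ctrl, age in controls and age in DKO it called 5900, 5206 and 9405 (4954, 3441 and 8616 with it). Calls thus rose over all genes as well. The number of members called was 0 for P3 DKO against P3 Jmjd1bKO with only the libraries compared (12 over all genes). It was 5 for P7 DKO against P7 Ctrl with a pseudocount of 0.1 (5228 over all genes), and 1 for the difference between the ages under quantile normalization (2453). Leaving out 1 library at a time gave 0 to 5 for P3 DKO against P3 Jmjd1bKO, 0 to 1 for age in controls, 1 to 2 for the difference between the ages, 2 to 3 for P7 DKO against P7 Ctrl and 3 to 4 for age in DKO. Where a group then holds 1 library, it is assumed to vary like the others. The causes were not tested. Over all genes, calls ranged over the alternatives from 10 to 1931 for P3 DKO against P3 Ctrl, 12 to 3727 for P3 DKO against P3 Jmjd1bKO, 4 to 2199 for P3 Ctrl against P3 WT, 4 to 170 for P3 DKO against P3 Jmjd1aKO, 3 to 12 and 3 to 9 for the single knockouts of Jmjd1a and Jmjd1b, 2619 to 5900 for P7 DKO against P7 Ctrl, 486 to 5206 for age in controls, 6843 to 10515 for age in DKO and 1635 to 4650 for the difference between the ages. Scaling moved the split of calls. With median-centring 277 of 780 called genes were higher for P3 DKO against P3 Ctrl (322 of 661 before), 50 of 105 for P3 Ctrl against P3 WT (60 of 104) and 2269 of 3519 for the difference between the ages (1800 of 3383), and with quantile normalization 1587 of 3011 for age in controls (1468 of 3441). Same-numbered libraries of different groups deviated together at r = -0.13 to 0.58 over 21 pairs of groups, 7 of them over 0.1. Among the 4 Cre groups of P3, 5 of 6 pairs were over 0.1, the highest being that of the 2 single knockouts, whose replicate 2 libraries are the Sertoli-rich pair. The labels give no shared source for same-numbered libraries, and the main fit has no term for the replicate number. Whether some of the groups share a source was not tested. The replicate block added Rarg in P3 DKO against P3 Jmjd1bKO (adjusted p = 0.028), Aldh1a2 at P7 (0.0463) and Rarb with age in controls (0.0448), and changed no other call of a member. Over all genes it moved the calls from 104 to 776 for P3 Ctrl against P3 WT and from 661 to 1140 for P3 DKO against P3 Ctrl. Low RPKM values, such as Crabp2 at P7, rest on few fragments.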

Other observations

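With age in DKO cells, 13 of the 23 retinoid genes tested fell and 1 rose (median -0.64, against -0.03 over all genes tested), where 58.3% of all genes were called. Of the 17 responsive genes 11 fell and 2 rose (median -0.96), the latter being Stra8 (3.31) and Zfp703 (1.45), both named after their values were seen. Of the 10 coregulators 2 fell and 1 rose.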
